A study of Arabidopsis thaliana with 8 samples.

Results

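Cytochrome P450 genes were examined in whole Arabidopsis thaliana seedlings labelled E2Fa-Dpa and in wildtype seedlings of the same Col-0 accession. The genes were taken by name, as probe sets whose only annotated symbol is CYP followed by a number, a letter and a number. Of 22746 probe sets tested, 22 met this rule, each for a different gene, and 18 of the 22 belong to the CYP71B subfamily. The test between the groups was set at an adjusted p of 0.05. Of all tested probe sets, 4.36% passed it with higher values in E2Fa-Dpa and 2.94% with lower ones. None of the 22 passed it in either direction. On the log2(signal + 16) scale of the test the largest difference was that of CYP71B23, whose signal was 62.7 ± 23.5 in wildtype and 118 ± 25.9 in E2Fa-Dpa (SD, n = 4 each).

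P450s are haem-containing oxygenases, most of them bound to the endoplasmic reticulum, that receive electrons from an NADPH-dependent reductase and insert oxygen into small molecules. In plants they act in the synthesis and breakdown of hormones, sterols, lignin precursors, waxes and defence compounds. The number in a P450 name gives the family, the letter the subfamily and the last number the gene. The CYP71B subfamily is one of the largest in Arabidopsis, and the substrate of most of its members is not known.

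Each group held 4 arrays, with 1 array per sample of total RNA. All seedlings grew on agar at 22 °C with 16 h of light and 8 h of dark, and were taken 6 days after germination, 8 days after sowing. The series is titled for the target genes of E2F, with E2Fa and DPa known as partners in a DNA-binding transcription factor. How the E2Fa-Dpa line was made, what promoter drives it and whether the samples of a group were grown apart is not given in the labels, so p-values measure only the spread between these samples, which may be technical.

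The values are MAS5 signals, linear intensities that the authors scaled to a common trimmed mean on each array. The median signal per array was 37.9 to 44.4. A signal under 16 is called dim here, and 30.3% to 35.7% of probe sets per array were dim. Signal from poly-A control RNA was found on replicates 3 and 4 of wildtype and 1 and 4 of E2Fa-Dpa, with almost none on the remaining 4 arrays. These are called the arrays with and without control RNA, or the array sets, and 2 arrays of each group lie in each. Within a group, arrays of the same set correlated at 0.974 to 0.994 and arrays of different sets at 0.949 to 0.968. Should both arrays of such a pair stem from the same RNA, each group would hold 2 samples rather than 4.

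Leaf and root markers were both present. The summed signal of 5 measured leaf and photosynthesis markers ranged from 13055 to 15851 in wildtype and from 9967 to 12147 in E2Fa-Dpa. That of 4 root markers ranged from 4007 to 5054 in wildtype and from 2728 to 3124 in E2Fa-Dpa. All 9 lay lower in E2Fa-Dpa, against 11190 of all 22746 probe sets. The threshold was passed by 2 of the leaf and 2 of the root markers, against 2.94% of all probe sets that fell. The root markers EXPA7 and EXPA18 add little to the root sum. Their own sum was 93.496 to 163.856 in wildtype and 79.954 to 116.287 in E2Fa-Dpa. These ranges overlap, and neither gene passed the threshold. The summed signal of the 3 guard cell lineage markers SPCH, MUTE and FMA lay the other way, at 47.2 to 67.8 in wildtype and 72.8 to 98.0 in E2Fa-Dpa. None of the 3 was past the threshold, and 1 of them was dim on every array. The pollen marker ACT12, the shoot meristem marker CLV3 and the trichome marker TRY were also dim on every array. The part of these shifts in the P450 values was not tested, and in whole seedlings fewer cells of a type and less RNA per cell cannot be told apart.

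The rule reached a small share of the superfamily. The RefSeq gene table holds 225 genes with symbols of this form in 40 families, against 22 genes in 5 families here. CYP71B accounts for 18 of them, out of 35 CYP71B symbols in that table, and the other 4 are CYP51G2, CYP78A9, CYP79A2 and CYP84A4. RefSeq lists 20 of the 22 as protein-coding genes, and CYP51G2 and CYP71B27 as transcribed pseudogenes. Other P450s were not analysed here, apart from a few probe sets outside the rule. No member of the lists for brassinosteroid, gibberellin, abscisic acid, cytokinin, jasmonate, carotenoid, strigolactone or cutin and wax P450s was among the 22.

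Most of these probe sets gave little signal in wildtype. The wildtype mean was under 16 for 12 of 22 (54.5%), against 32.6% of all tested probe sets, between 16 and 100 for 9, between 100 and 500 for CYP71B6 alone, and over 500 for none, against 5.73% of all. Of the 22, 9 stayed under 16 on all 8 arrays and 7 stayed at or over 16 on all 8. Probe sets differ in how strongly they bind their target, so these signals do not rank the genes by transcript number, and without detection calls a dim signal cannot be told from background.

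CYP71B6, an enzyme that converts indole-3-acetonitrile in the metabolism of indolic defence compounds, had the brightest probe set of the 22. It measured 224, 246, 251 and 188 on wildtype replicates 1 to 4 and 221, 186, 211 and 229 on E2Fa-Dpa replicates 1 to 4. The groups overlapped almost fully, with a log2 fold change of -0.09 and a 95% interval of -0.37 to 0.19. The next wildtype means were those of CYP71B26 with 85.9, CYP71B28 with 69.6, CYP71B23 with 62.7 and CYP71B34 with 60.8.

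**Figure D1:**
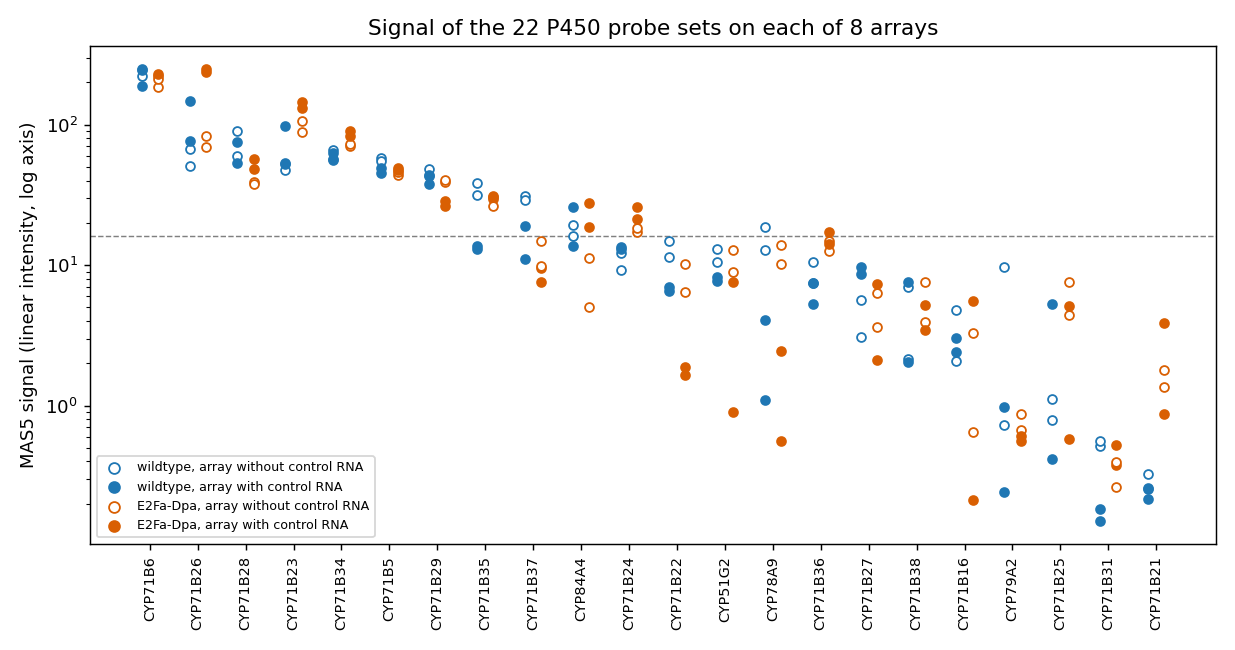
MAS5 signal (linear intensity on a log axis) of the 22 P450 probe sets on each of the 8 arrays, ordered by wildtype mean, with wildtype in blue and E2Fa-Dpa in orange, filled for arrays with control RNA and open for those without. The dashed line marks a signal of 16, and 12 probe sets have a wildtype mean under it.

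The comparison of E2Fa-Dpa with wildtype asks whether these genes change with the factors that the series is titled for. Among the 22 members 0 rose and 0 fell (limma, p adjusted by Benjamini-Hochberg over the whole array), against 4.36% of all probe sets that rose and 2.94% that fell. At an unadjusted p under 0.05 there were 6 of 22, against 23.3% of all. Those 6 were CYP71B36, CYP71B23, CYP71B24 and CYP71B34, with higher values in E2Fa-Dpa, and CYP71B37 and CYP71B28, with lower ones. The fold changes are on the log2(signal + 16) scale and understate the change of dim probe sets.

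On that scale 10 of the 22 lay above 0 and 12 below, with a median of -0.07 against 0.00 for all probe sets. The median size of the difference, without its sign, was 0.18, against 0.19 for all. The 95% interval lay inside a 2-fold change in either direction for 20 of the 22, the exceptions being CYP71B23 (0.30 to 1.27) and CYP71B26 (-0.26 to 1.63). Among the 10 with a wildtype mean of at least 16, it did so for 8 on this scale. For the 12 dim ones the added 16 compresses the scale, and the interval says little about the transcript. Members not far above 16 are compressed too, and for them the interval does not bound the transcript within 2-fold. CYP71B37, among those 8 with a wildtype mean of 22.6, had a log2 fold change of -0.52, but -0.98 with 1 added in place of 16. The same change of scale took CYP84A4 from -0.17 to -0.43 and CYP71B35 from 0.23 to 0.42. All these intervals treat the 8 arrays as independent and make no allowance for pairs of arrays of the same group and set.

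**Figure D2:**
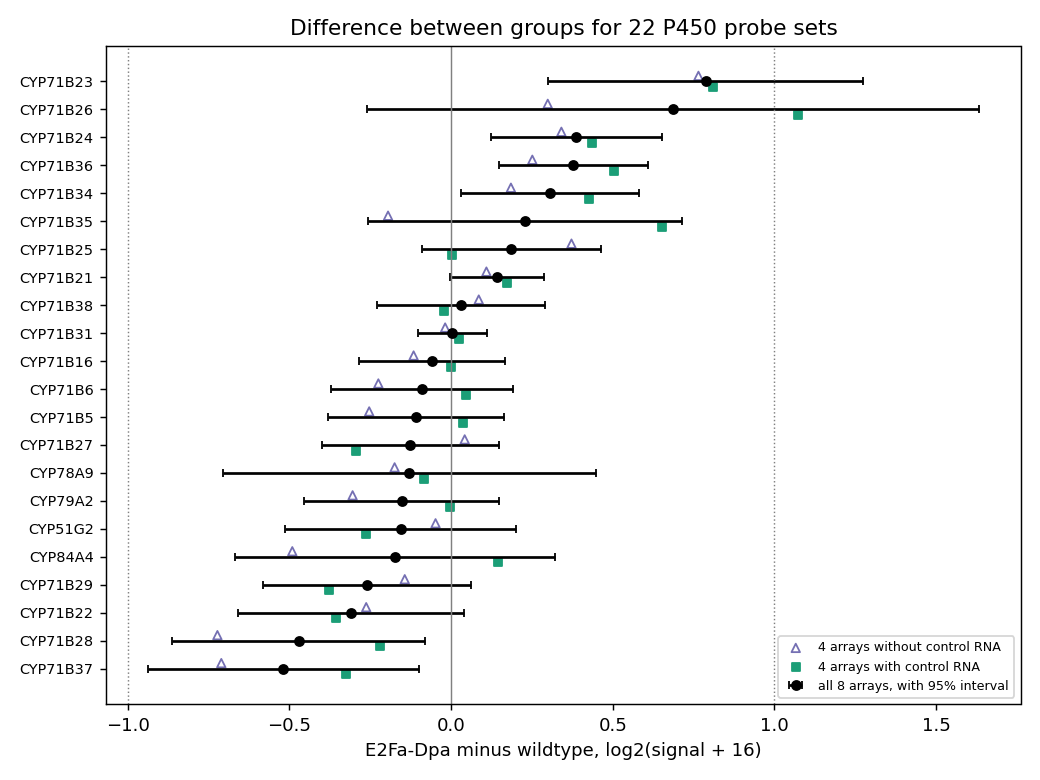
Difference between E2Fa-Dpa and wildtype in log2(signal + 16) for each P450 probe set, as black points with 95% intervals from limma over all 8 arrays, with the differences within the 4 arrays without control RNA (triangles) and the 4 with it (squares). Values run from -0.52 for CYP71B37 to 0.79 for CYP71B23, and no probe set passed the adjusted threshold over all 8 arrays.

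The array sets changed which P450s were called. With the array set as a block in the model, CYP71B23, CYP71B36 and CYP71B24 rose, against 11.7% of all probe sets, and CYP71B37 and CYP71B22 fell, against 9.77%. Their shares among the 22 thus lay near those over all probe sets. The block leaves the fold changes as they are and rests mostly on the spread within close pairs of arrays. On the 4 arrays without control RNA CYP71B23 rose and CYP71B37 fell, against 5.51% and 5.14% of all probe sets, and 5 of 22 had an unadjusted p under 0.05, against 28.9%. On the 4 with it none of the 22 passed, against 3.75% and 2.95%, while 8 of 22 had an unadjusted p under 0.05, against 25.8%. None of the 5 genes called with the block passed when close pairs of arrays were given a random block or averaged. All 5 are CYP71B genes of a single stretch of chromosome 3, where 11 of the 22 members lie.

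That stretch runs from CYP71B16 (AT3G26150) to CYP71B37 (AT3G26330). It holds 24 consecutive genes of the RefSeq table, 18 of them named CYP71B, and 11 of these are among the 22 probe sets. The other CYP71B genes between them are CYP71B3, CYP71B4, CYP71B17, CYP71B18, CYP71B19, CYP71B20 and CYP71B33. Tandem copies such as these are alike in sequence, and how far the probes of one gene also bind its neighbours' transcripts was not tested. Of the 11, 8 had higher means on the log2 scale in E2Fa-Dpa and 3 lower, with a median difference of 0.23. Over all 22746 probe sets, 11556 lay higher and 11190 lower. None of the 11 passed over all 8 arrays without a block. Of the 10 pairs of members next to each other in gene order, 4 had opposite signs.

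CYP71B23 (AT3G26210) had the largest difference of the 22 in log2(signal + 16), but not with 1 in place of 16, where it had 0.94 and the dimmer CYP71B21, CYP71B22 and CYP71B37 had 1.14, -1.05 and -0.98. It measured 53.2, 47.3, 97.7 and 52.5 on wildtype replicates 1 to 4. On E2Fa-Dpa replicates 1 to 4 it measured 146, 88.0, 106 and 132. Wildtype replicate 3 lay among the E2Fa-Dpa values and the other 3 wildtype arrays lay below all of them, so the groups overlapped through that array. The log2 fold change was 0.79 ± 0.217 (SE, limma adjusted p = 0.0608, and 0.00831 when the array set was blocked). In the arrays without control RNA it was 0.76 and in the others 0.81, and all 4 E2Fa-Dpa values lay above the wildtype mean. Without wildtype replicate 3 it rose by 0.98 (adjusted p = 0.0159), and it also passed without E2Fa-Dpa replicate 2 (adjusted p = 0.0499). CYP71B23 did not pass without any other replicate (limma adjusted p up to 0.171), or with close pairs given a random block (0.257) or averaged (0.486).

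CYP71B22 (AT3G26200), its neighbour on one side, had lower values in E2Fa-Dpa. It gave 11.4, 14.9, 6.49 and 7.02 in wildtype and 1.64, 10.2, 6.42 and 1.88 in E2Fa-Dpa. All 8 values are dim and the groups overlap, but within each array set both E2Fa-Dpa values lay below both wildtype values. The log2 fold change was -0.31 (limma adjusted p = 0.273, and 0.0291 with the block). CYP71B21 (AT3G26190), next in order, was near 0 in wildtype, at 0.218 to 0.327, and 0.870 to 3.89 in E2Fa-Dpa. These groups do not overlap, yet every value is far under 16, and the log2 fold change was 0.14 (adjusted p = 0.224).

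CYP71B24 (AT3G26230) lies on the other side of CYP71B23, past CYP71B3. Its wildtype values of 12.2, 9.24, 13.0 and 13.5 all lay below the E2Fa-Dpa values of 21.1, 17.3, 18.3 and 26.1. Wildtype was dim throughout and E2Fa-Dpa just over that level. The log2 fold change was 0.39 ± 0.118 (SE, limma adjusted p = 0.0822, and 0.0186 with the block), with 0.34 and 0.43 within the array sets. CYP71B25 (AT3G26270) was dim on all arrays, with 0.414 to 5.26 in wildtype and 0.580 to 7.59 in E2Fa-Dpa, and CYP71B16 at the start of the stretch likewise, with 0.213 to 5.56 over all 8.

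The last 4 genes of the stretch, CYP71B34 to CYP71B37 (AT3G26300 to AT3G26330), follow each other with no gene between them. CYP71B34 gave 56.4, 66.5, 62.9 and 57.3 in wildtype and 89.9, 70.4, 73.3 and 82.7 in E2Fa-Dpa. Every E2Fa-Dpa value was above every wildtype value, by a small margin, with a log2 fold change of 0.31 (limma adjusted p = 0.168, and 0.0604 with the block). CYP71B35 gave 38.7 and 31.5 on the wildtype arrays without control RNA and 13.7 and 12.9 on those with it, while all 4 E2Fa-Dpa arrays gave 26.2 to 31.0. Its log2 fold change was -0.20 within the first set and 0.65 within the second (interaction adjusted p = 0.18).

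CYP71B36 and CYP71B37, side by side at the end of the stretch, had differences of opposite sign. CYP71B36 gave 7.5, 10.5, 5.28 and 7.4 in wildtype and 17.3, 12.7, 14.7 and 14.1 in E2Fa-Dpa. The groups did not overlap, and 7 of the 8 values were dim. The log2 fold change was 0.38 ± 0.102 (SE, limma adjusted p = 0.0575, the smallest of the 22, and 0.0252 with the block). CYP71B37 gave 31.2, 29.3, 11 and 19 in wildtype and 9.52, 14.8, 9.86 and 7.56 in E2Fa-Dpa. Wildtype replicate 3 lay within the E2Fa-Dpa range and the other wildtype values above it. Its log2 fold change was -0.52 ± 0.187 (SE, adjusted p = 0.132, and 0.0228 with the block), and it passed without wildtype replicate 3 (log2 fold change -0.68, adjusted p = 0.0379). Within each array, CYP71B36 minus CYP71B37 in log2(signal + 16) was -0.68 ± 0.28 in wildtype and 0.22 ± 0.22 in E2Fa-Dpa (SD, n = 4 each), a pair chosen after its values were seen and given with no test.

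**Figure D3:**
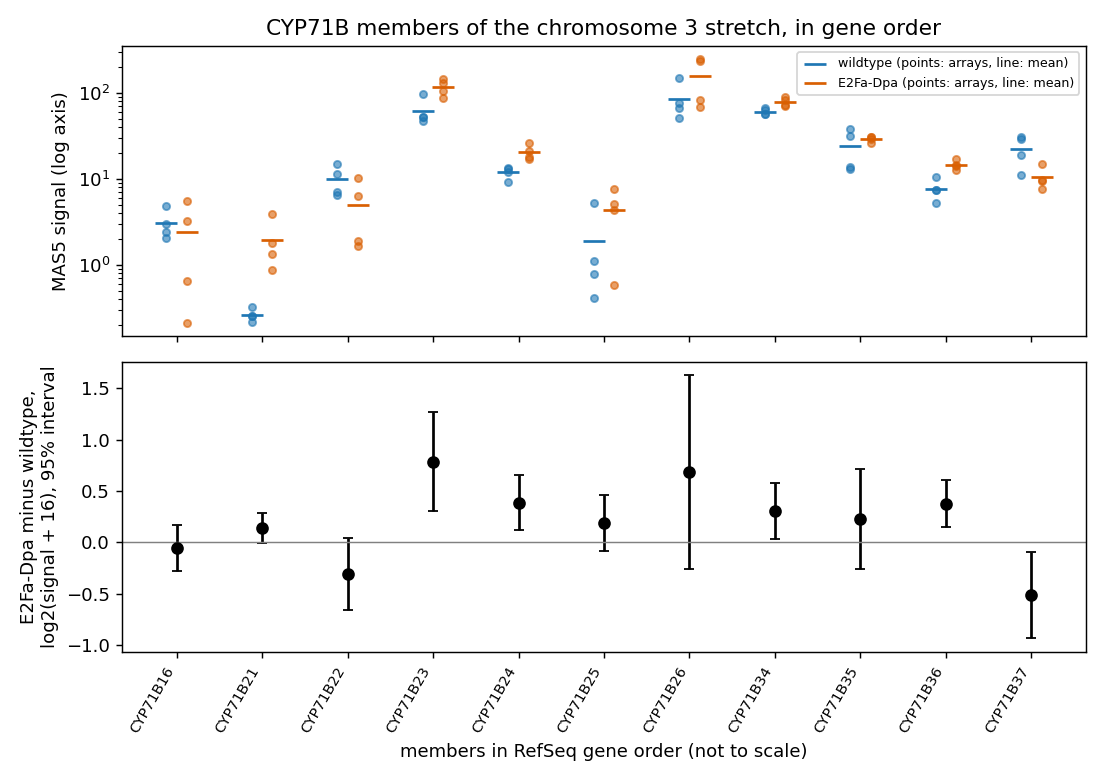
The 11 CYP71B members of the chromosome 3 stretch in gene order, with MAS5 signals per array on a log axis above (points, with a line for the mean of 4 arrays) and the difference in log2(signal + 16) with its 95% interval below. Wildtype means run from 0.264 for CYP71B21 to 85.9 for CYP71B26, and differences from -0.52 for CYP71B37 to 0.79 for CYP71B23.

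Groups that did not overlap were found for 4 of the 22 in the higher direction, CYP71B34, CYP71B36, CYP71B24 and CYP71B21, against 9.53% of all probe sets, and for none in the lower direction, against 6.77%. Within each array set, both E2Fa-Dpa arrays lay above both wildtype arrays for 6 members, against 17.5% of all, and below for 3, against 14.7%. The 6 were those 4 with CYP71B23 and CYP71B26, and the 3 were CYP71B37, CYP71B22 and CYP71B29. All but CYP71B29 lie in the chromosome 3 stretch.

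A shorter group of CYP71B genes lies on chromosome 1, where CYP71B27, CYP71B28 and CYP71B29 follow each other together with CYP71B2, which was not analysed here. All 3 had log2 fold changes below 0, against 11190 of all 22746 probe sets, with a median of -0.26, and none of the 3 passed. CYP71B28 (AT1G13090) gave 90.3, 59.5, 53.5 and 75.0 in wildtype and 57.0, 38.9, 37.6 and 48.0 in E2Fa-Dpa. Only E2Fa-Dpa replicate 1 reached into the wildtype range, and the log2 fold change was -0.47 ± 0.174 (SE, limma adjusted p = 0.141, and 0.0715 with the block). CYP71B29 (AT1G13100) gave 37.7 to 48.0 in wildtype and 26.3 to 40.6 in E2Fa-Dpa, with -0.26 on the log2 scale (adjusted p = 0.318). CYP71B27, the pseudogene, was dim on all 8 arrays.

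The remaining CYP71B genes lie apart. CYP71B5 (AT3G53280) gave 45.1 to 57.8 in wildtype and 43.9 to 49.5 in E2Fa-Dpa, with a log2 fold change of -0.11 and an interval of -0.38 to 0.16. CYP71B31, an enzyme of linalool oxidation in flowers, lies close to CYP71B5 and gave 0.151 to 0.563 over all 8 arrays. CYP71B38 (AT3G44250) gave 2.04 to 7.58.

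The 4 members of other families had log2 fold changes of -0.13 to -0.17, none past the threshold. CYP84A4 (AT5G04330), which acts in the synthesis of the arabidopyrones, alpha-pyrones made from phenylpropanoids, gave 16.1, 19.3, 25.8 and 13.7 in wildtype and 18.8, 5.03, 11.3 and 27.6 in E2Fa-Dpa. The E2Fa-Dpa values lay on both sides of the wildtype range. CYP79A2 (AT5G05260), which makes phenylacetaldoxime from phenylalanine on the way to benzylglucosinolate, gave 9.64, 0.731, 0.982 and 0.242 in wildtype and 0.561 to 0.869 in E2Fa-Dpa. Wildtype replicate 1 stood alone, and all 8 values were dim.

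CYP51G2 (AT2G17330), a transcribed pseudogene related to the sterol 14-alpha-demethylase CYP51G1, gave 7.72 to 13.0 in wildtype and 0.900 to 12.9 in E2Fa-Dpa. Its lowest value was on E2Fa-Dpa replicate 1, and the other 3 lay at 7.64 to 12.9. CYP78A9 (AT3G61880), which promotes fruit and seed growth, gave 18.7, 12.9, 1.1 and 4.07 in wildtype and 0.560, 10.2, 13.9 and 2.44 in E2Fa-Dpa. In both groups the 2 arrays without control RNA were the high ones, yet every value but the 18.7 was dim.

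CYP78A9 was thus among 3 members that differed between the array sets when the group was also fitted. CYP78A9 and CYP71B22, both with a dim wildtype mean, were higher in the arrays without control RNA, against 16.5% of all probe sets. They were higher by 0.73 and 0.40 on the log2 scale (limma adjusted p = 0.00204 and 0.00989). CYP71B26 (AT3G26290) was lower in the arrays without control RNA, by a difference of -1.10 (adjusted p = 0.00806), against 9.73%. CYP71B26 gave 67.6, 51.1, 149 and 76.2 in wildtype and 249, 83.1, 69.7 and 238 in E2Fa-Dpa. Its E2Fa-Dpa values with control RNA, 249 and 238, stood above all others, and those without lay inside the wildtype range. The log2 fold change between the groups was 0.69 ± 0.421 (SE, adjusted p = 0.376, and 0.0522 with the block), with 0.30 in the array set without control RNA and 1.07 in the other.

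**Figure D4:**
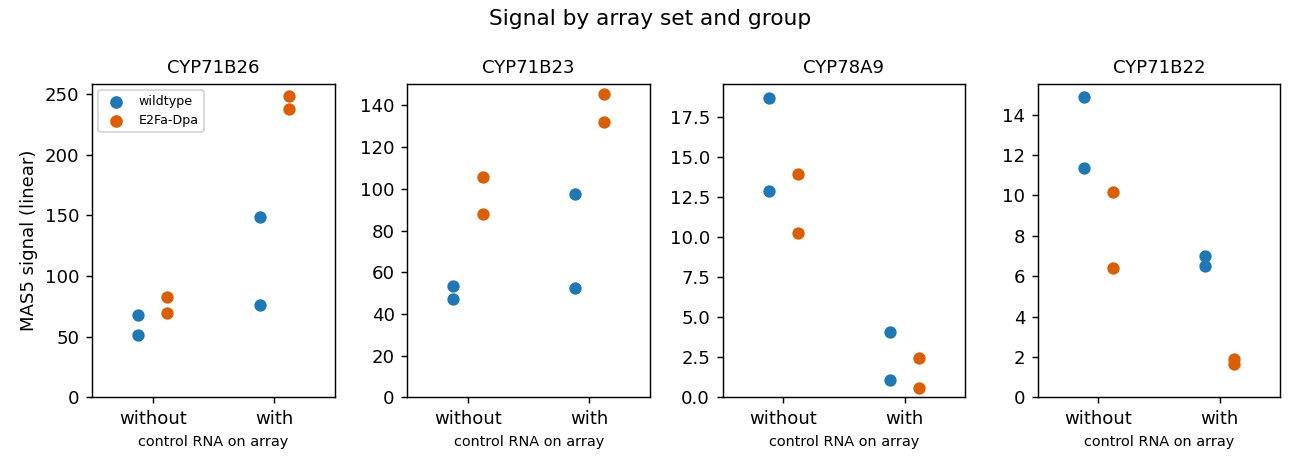
MAS5 signal on a linear axis of 4 P450 probe sets on the arrays without and with control RNA, with wildtype in blue and E2Fa-Dpa in orange and 2 arrays per group and set. CYP71B26 reaches 249 and 238 on the E2Fa-Dpa arrays with control RNA, and CYP78A9 stays at or under 4.07 on all 4 arrays with it.

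The difference between the groups had the same sign in both array sets for 15 of the 22 and opposite signs for 7. No member had an effect that differed between the sets by the interaction test (0 of 22 by limma with adjustment over all probe sets, against 0.0835% of all). With 2 arrays per group and set, that test measures the spread within close pairs.

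Probe sets that the rule left out gave the following. The probe set that CYP71B19 and CYP71B20 of the chromosome 3 stretch share gave 101.8 to 137 in wildtype and 80.8 to 124 in E2Fa-Dpa, with a log2 fold change of -0.18 (limma adjusted p = 0.546). CYP71B30P and the probe set that CYP79C2 shares with AT1G58265 were dim in both groups. Their log2 fold changes were -0.048 and -0.053 (limma adjusted p = 0.64 and 0.812). CYP718, a P450 whose symbol has no letter, fell from 14.5 ± 4.54 to 1.55 ± 0.937 (SD, n = 4 each), with a log2 fold change of -0.79 (adjusted p = 0.00501). Its groups did not overlap, with 8.32 to 18.3 in wildtype and 0.756 to 2.77 in E2Fa-Dpa. This call was the only change past the threshold among the P450 probe sets looked at, while 2.94% of all probe sets fell. It was chosen after its values were seen, and it rests on signals near or under 16. It was lost when close pairs were given a random block (adjusted p = 0.0629) or averaged (adjusted p = 0.174), and on the arrays without control RNA alone (adjusted p = 0.0785).

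Most other genes of the pathways that P450s serve have no probe set that names them alone and were not analysed here. Of 7 lists, 4 held measured genes, 12 in all, of which 2 fell and none rose, against 2.94% and 4.36% of all probe sets. In the glucosinolate and camalexin list 1 of 4 fell, BCAT4, an aminotransferase of the chain elongation that precedes methionine-derived glucosinolates. It gave 366, 369, 358 and 561 in wildtype and 156, 201, 216 and 167 in E2Fa-Dpa, groups that lie apart, with a log2 fold change of -1.08 (limma adjusted p = 0.00642). In the phenylpropanoid list 1 of 5 fell, CHIL, an enhancer of flavonoid production, from 116.5 ± 49.3 to 29.5 ± 9.26 (adjusted p = 0.0228), a call lost in 5 of the 8 fits on 7 arrays, namely when replicate 1 or 2 of wildtype, or 1, 3 or 4 of E2Fa-Dpa, was left out (adjusted p up to 0.0775). Both calls were lost when close pairs were given a random block (adjusted p = 0.0531 for BCAT4 and 0.112 for CHIL) or averaged (0.25 and 0.325), and that of CHIL also on the arrays with control RNA alone (0.109). Neither the 2 measured cutin and wax genes, SHN3 and WSD1, nor the brassinosteroid receptor BRL1 passed. The part of these pathways in the P450 values was not tested.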

How the data were processed

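The authors deposited a linear intensity for each probe set on each array. MAS5 is the method named in the submitters' processing notes, with no version, and neither detection calls nor the scaling target are given in the sources used here. Of 22810 probe sets 64 are controls of the manufacturer, and the remaining 22746 were tested with no filter. The number of arrays limits the precision.

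Signals were used as log2(signal + 16). Differences (E2Fa-Dpa minus wildtype) come from limma 3.58.1 under R 4.3.3, using lmFit and eBayes with a trend on 8 arrays without covariates. The fitting procedure itself was also tested on simulated data. Those had independent noise on each array and no close pairs of arrays, so that test cannot say how such pairs affect the p-values. Changes were put only into probe sets well above the dim level, so it cannot say how well changes in dim ones are found. P-values were adjusted by Benjamini-Hochberg over all tested probe sets, with a threshold of 0.05. The array sets were read from control probe sets for the poly-A RNA dap.

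Symbols came from the platform annotation, in which 13513 tested probe sets name 1 gene, 503 several and 8730 are not listed. All 22 members matched the RefSeq gene table of TAIR10.1 with the same symbol. That table was used for names, gene type and gene order only, since no source used here names the build behind the probe annotation.

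The members, lists and tests were chosen with earlier results of these data known. By rule, values on every array are given for called members, the 5 brightest in wildtype, the 3 uncalled with the smallest p and the 2 with the smallest p of a role list with at least 2 members. Other values per array, such as those of CYP71B22, CYP71B37 and CYP78A9, were chosen after they were seen. The 13 role lists held 6 of the 22. From the partner lists 2 symbols, LCR and FDH, were left out because here they name an F-box gene and formate dehydrogenase. Alternatives were other pseudocounts, scalings, a filter, blocks, array subsets, RefSeq symbols and each replicate left out.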

Additional observations from a re-analysis of the deposited data

Results flagged for a closer look

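In 3 of 44 groups of 4 arrays, a sample lay farther from its group, on the log2(signal + 16) scale, than Dixon's 95% limit allows. Chance flags about 1 in 20 groups. CYP79A2 gave 9.64 on wildtype replicate 1, against 0.242 to 0.982 on the other wildtype arrays. CYP71B25 gave 5.26 on wildtype replicate 3, against 0.414 to 1.11. Both are dim. CYP71B23 gave 97.7 on wildtype replicate 3, against 47.3 to 53.2 on the other wildtype arrays. Its limma adjusted p was 0.0608 with that array and 0.0159 without. Other settings that kept the array also passed it. These were the array set as a block (0.00831), a mean signal of at least 16 (0.038) and E2Fa-Dpa replicate 2 left out (0.0499). CYP71B23 did not pass with a replicate block (limma adjusted p = 0.0956), or with close pairs given a random block (0.257) or averaged (0.486). It passed in 5 of 21 alternatives.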

How the results depend on the processing

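The counts of 0 risen and 0 fallen members held with a pseudocount of 1, quantile scaling, median centring, cyclic loess, no trend, members chosen by RefSeq symbol, and close pairs given a random block or averaged. A pseudocount of 64 gave 1 rise (CYP71B36), and a mean signal of at least 16, which kept 11 of the 22, gave 1 rise (CYP71B23). The array set as a block gave 3 rises and 2 falls, and the arrays without control RNA alone gave 1 rise and 1 fall. Leaving out 1 replicate gave 0 to 1 rises and 0 to 1 falls, with CYP71B23 and CYP71B37 called without wildtype replicate 3 and CYP71B23 without E2Fa-Dpa replicate 2. The count of members whose effect differed between array sets was 0 to 0 with 1 replicate left out and 0 in the other settings run. No label says that a replicate number marks a shared sample. The deviations of same-numbered arrays correlated at -0.52, 0.44, -0.36 and 0.53, with signs that follow the array set, so they do not settle the pairing, and the fit with a replicate block gave 0 rises and 0 falls. Of 451 log2 fold changes of single members under alternatives, 420 kept sign and side of the threshold, 12 passed it and 19 changed sign, all 19 of them not called. Sign changes with median centring were CYP71B31 (-0.058) and CYP71B38 (-0.030). Within the arrays with control RNA they were CYP84A4 (0.14), CYP71B5 (0.036), CYP71B38 (-0.023) and CYP71B6 (0.045). Within those without, they were CYP71B31 (-0.018), CYP71B35 (-0.20) and CYP71B27 (0.042). With 1 replicate left out the values ran from -0.34 to 0.0058 for CYP84A4, -0.22 to 0.0024 for CYP79A2, -0.30 to 0.043 for CYP78A9, -0.0025 to 0.0096 for CYP71B31 and -0.031 to 0.098 for CYP71B38. The causes were not tested. Signals under 16 limit what can be said of 12 of the 22.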
